A study of Mus musculus with 2 samples.

Results

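The genes described here are 9 osteoblast genes, Runx2, Sp7, Dlx5, Alpl, Phex, Ibsp, Spp1, Bglap and Bglap2, measured in single cells of the dura, the outermost meninx, which lies against the inside of the skull. They were chosen by name, with earlier results of these data known, and are 9 of the 19347 genes in the authors' table of annotated cells. Each gene was followed across the 22 clusters that the authors deposited, with cluster 4 set against the stromal clusters 0, 5 and 7. Mice were 14 days old and came from a comparison of Il33-deficient animals with heterozygous controls, made to ask what interleukin-33 signalling does in the dura.

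There was 1 droplet library per genotype. The het library (Il33H2B-mcherry-het, Il33mcherry/+) and the KO library (Il33H2B-mcherry-KO, Il33mcherry/mcherry) both carry the H2B-mCherry allele at Il33, so the controls keep 1 intact copy and no library is wild type. Each library pooled the meninges of 5 to 8 mice per genotype and sex. Tissue was scraped from the skullcap, digested for 30 min at 37 °C and sorted, with CD45+CD11b- cells, gp38+CD31- cells and all viable cells mixed 1:1:2. The sort therefore sets the share of each cell class. No gate was set for bone cells alone, and gp38 RNA was also counted in cluster 4. With 1 library per genotype no test was possible and no p-value is given. All intervals are exact 95% intervals that cover counting error only, since a difference between 2 libraries can also come from the animals, the sort or the preparation.

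Osteoblasts build bone by secreting a collagen-rich matrix and then mineralizing it. The transcription factor Runx2 commits mesenchymal cells to this lineage, Sp7 (osterix) acts downstream of it, and Dlx5 is a homeobox factor of the developing skull. Alkaline phosphatase (Alpl) is expressed early, whereas bone sialoprotein (Ibsp), osteopontin (Spp1) and osteocalcin (Bglap and its copy Bglap2) mark cells that lay down or mineralize matrix, and Phex marks the late osteoblast and the osteocyte. In the dura such cells lie next to the growing skull bones.

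Per the gene annotation of build GRCm38 (mm10), whose identifiers match those in the files, all 9 are protein-coding genes. The regulators are Runx2 (ENSMUSG00000039153) at chr17:44495987-44814797, Sp7 (ENSMUSG00000060284) at chr15:102356606-102367182 and Dlx5 (ENSMUSG00000029755) at chr6:6877805-6882085, each on the minus strand. Alpl (ENSMUSG00000028766) lies at chr4:137741733-137796384 and Phex (ENSMUSG00000057457) at chrX:157162075-157415312, also on the minus strand. The matrix genes Ibsp (ENSMUSG00000029306, chr5:104299171-104311469) and Spp1 (ENSMUSG00000029304, chr5:104435118-104441050) are on the plus strand, 123648 bases apart. Bglap (ENSMUSG00000074483, chr3:88383501-88384464) and Bglap2 (ENSMUSG00000074486, chr3:88377736-88378699) are on the minus strand, 4801 bases apart.

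Bglap and Bglap2 are shown in full because their likeness decides how far their counts can be read apart. The coding sequences are from GENCODE M21, written 5′ to 3′ without the stop codon, with the bases that differ in capitals.
Bglap: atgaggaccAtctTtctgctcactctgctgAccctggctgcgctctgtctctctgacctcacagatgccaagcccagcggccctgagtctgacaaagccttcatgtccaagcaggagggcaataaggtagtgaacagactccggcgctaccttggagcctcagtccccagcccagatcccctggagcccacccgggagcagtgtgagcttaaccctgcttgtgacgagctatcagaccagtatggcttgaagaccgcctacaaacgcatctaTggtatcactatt
Bglap2: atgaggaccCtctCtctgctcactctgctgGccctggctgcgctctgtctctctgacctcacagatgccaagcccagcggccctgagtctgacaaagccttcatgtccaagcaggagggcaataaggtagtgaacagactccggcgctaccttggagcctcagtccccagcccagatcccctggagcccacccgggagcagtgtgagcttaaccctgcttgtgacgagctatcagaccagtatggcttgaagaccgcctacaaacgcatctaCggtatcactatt
They differ at 4 of 285 bases (A10C, T14C, A31G and T273C, the Bglap base first, counted from 1 at the first base of the start codon) and are 98.6% identical. From the stop codon to the end of the transcript, the stretch nearest to where a 3′ droplet library is read, 137 of 137 bases are identical. Counts of Bglap and Bglap2 are therefore uncertain as separate values, and they are also given as a sum, called osteocalcin below.

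Promoters are shown because the members rise together in 1 cluster and Runx2 is a DNA-binding regulator among them. Sequences are the 250 bases before the start from RefSeq on build GRCm38.p6, which has an entry for 6 of the 9 members (8 starts), and not for Sp7, Dlx5 and Bglap2. The letters ACCACA, the core bound by RUNX proteins, were searched on both strands and are in capitals.
Bglap, chr3:88384467-88384716, minus strand: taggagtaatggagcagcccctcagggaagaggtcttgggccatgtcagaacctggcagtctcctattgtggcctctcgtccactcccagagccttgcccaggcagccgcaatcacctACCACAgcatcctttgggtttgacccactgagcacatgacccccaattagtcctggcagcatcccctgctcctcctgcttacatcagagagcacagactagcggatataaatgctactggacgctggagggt
Spp1, chr5:104434861-104435110, plus strand: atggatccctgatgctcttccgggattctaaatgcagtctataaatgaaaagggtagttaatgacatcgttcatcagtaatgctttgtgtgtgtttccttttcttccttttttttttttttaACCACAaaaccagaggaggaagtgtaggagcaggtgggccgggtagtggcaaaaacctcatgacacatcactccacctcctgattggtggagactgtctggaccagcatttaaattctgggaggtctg
Runx2, chr17:44814628-44814877, minus strand: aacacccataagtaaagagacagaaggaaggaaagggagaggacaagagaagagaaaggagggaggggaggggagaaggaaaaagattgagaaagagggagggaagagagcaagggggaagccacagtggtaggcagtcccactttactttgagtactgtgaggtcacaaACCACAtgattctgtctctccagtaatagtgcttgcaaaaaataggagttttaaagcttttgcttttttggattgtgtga
The core begins at -132 in Bglap, at -128 in Spp1 and at -80 in Runx2, counted from the start. It was in 3 of the 8 starts, against 14.0% of the 32851 promoters in the table, and is not in these windows of Alpl, Phex, Ibsp and the second start of Spp1. A match of 6 letters is a description and no evidence of binding.

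The authors' annotation covers 5950 het and 6594 KO cells, with a median of 12746.5 and 12203.5 unique molecular identifiers (UMIs, the unit of count) per cell. The 2 matrices share 36 barcodes and the annotated cells 14, none of them in cluster 4. Il33 itself, in CPM (UMIs of the gene per 1000000 UMIs of the same cluster and library), was 77.9 in het and 17.0 in KO cells of cluster 4, a KO/het ratio of 0.218 (0.176 to 0.267), and 0.1604 to 0.224 in clusters 0, 5 and 7. Transcripts of the gene were thus still counted in the KO library, at a lower level.

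Cluster 4 held 360 het cells with 5183501 UMIs and 507 KO cells with 7020426 UMIs, at median depths of 14557.5 and 13507 UMIs. Of 16 osteolineage markers, which include the 9 genes themselves, 14 were at least 2-fold higher there than in all other cells in both libraries. The exceptions were Phospho1 and Car12. Its leading genes by fold were Ibsp, Bglap, Bglap2, Mmp13, Gpha2, Spp1, Matn4, Gpx3, Comp and Npnt, and it is called osteolineage-like. Over both libraries a UMI of Ibsp was in 7.27%, of Bglap in 19.4% and of Bglap2 in 19.1% of its cells. Matn4, Gpx3 and Comp were in 84.5%, 70.5% and 58.2%. Markers of other stromal types were present as well, and 3 of 8 fibroblast markers (Pdgfra, Lum, Cxcl14) and 3 of 6 measured chondrocyte markers (Acan, Col2a1, Col9a1) were also 2-fold higher. So was Acta2, a smooth muscle actin and 1 of 7 pericyte or smooth muscle markers, which summed to 284 CPM in het and 290 CPM in KO. The osteoclast markers summed to 700 CPM in het and 910 CPM in KO, with Ctsk the only 1 of 8 that was 2-fold higher and 2 and 4 of them at 0. Macrophage and blood endothelial markers summed to at most 59.8 and 25.5 CPM. Cluster 5 is arachnoid barrier-like, with 6 of 7 markers of that type 2-fold higher than in other cells. Clusters 0 and 7 are given by number, with 3 and 6 of 8 fibroblast markers 2-fold higher.

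Cluster 4 held the highest level of 8 of the 9 genes, as the mean of the 2 libraries over the 22 clusters. The authors made the clusters from the RNA of these same cells, so the comparison of cluster 4 with the others describes where the genes are and is not a test. At least 2-fold higher levels than in clusters 0, 5 and 7 together were seen in both libraries for 8 of 9 members, against 3.37% of the 12745 genes with at least 100 UMIs. Alpl was the exception. Phex, counted among the 8, fell short of 2-fold against some of these clusters alone. In het it was 1.44-fold cluster 5 (0.969 to 2.15) and 1.92-fold cluster 7 (1.22 to 3.10), and in KO 0.624-fold cluster 7. It was past 2-fold over cluster 0 in both libraries and over cluster 5 in KO. The members' median log2 ratio of cluster 4 over the stromal clusters was 5.57 in het and 5.32 in KO, and that of all those genes was 1.85e-05 and -0.01.

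Runx2 was broad within cluster 4 and was not confined to it. Its level was 147 CPM in het (137 to 158) and 129 CPM in KO (121 to 137), or 5.83-fold and 5.13-fold the level of clusters 0, 5 and 7 together. Within the cluster, 72.2% of het and 67.1% of KO cells had at least 1 Runx2 UMI. Next in order came cluster 11 with 31.4 and 34.5 CPM, cluster 0 with 30.8 and 32.7 CPM and cluster 12 with 32.7 and 25.0 CPM, neighbours whose library ranges overlap. Cluster 4 thus held 36.3% of all Runx2 UMIs of the het cells and 37.8% of those of the KO cells.

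Sp7, the factor that acts after Runx2, was low in UMIs and narrower. Cluster 4 had 30.9 CPM in het (26.3 to 36.0) and 28.5 CPM in KO (24.7 to 32.7), from 160 and 200 UMIs. The next cluster was 20, at 10.56 and 10.52 CPM. Clusters 0, 5 and 7 together had 3.28 and 4.01 CPM, so that cluster 4 was 9.41-fold (7.27 to 12.2) and 7.11-fold (5.70 to 8.90) above them. In both libraries the cluster 4 value lay outside the interval of the stromal value.

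Dlx5 set cluster 4 apart from its stromal neighbours more sharply than the other regulators. Its level was 86.2 CPM in het (78.4 to 94.6) and 67.5 CPM in KO (61.6 to 73.9), while clusters 0, 5 and 7 together gave 13 UMIs (0.435 CPM) and 28 UMIs (0.813 CPM). The ratio was 198 (115 to 375) in het and 83.1 (56.7 to 126) in KO. Of all Dlx5 UMIs, 75.9% in het and 79.0% in KO were in cluster 4. Cluster 19 was next, with 23.0 and 14.4 CPM, and no cell there had more than 5 UMIs.

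Alpl, the phosphatase that frees phosphate for mineral, was the member that the other stromal cells shared most. Cluster 4 had 502 CPM in het (483 to 522) and 383 CPM in KO (369 to 398), and cluster 0 had 242 and 263 CPM. Cluster 5 followed with 157 and 172 CPM, whereas cluster 7 had 27.9 and 40.2 CPM. The 4 clusters therefore kept 1 order in both libraries, and their libraries' ranges did not overlap. Cluster 4 was 2.61-fold above clusters 0, 5 and 7 together in het (2.49 to 2.74) and 1.85-fold in KO (1.77 to 1.93). A UMI was found in 69.6% of het and 69.3% of KO cells of cluster 0, close to the 72.2% and 66.1% of cluster 4. Only 26.9% and 23.5% of Alpl UMIs were in cluster 4.

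Phex, a membrane endopeptidase that restrains phosphate wasting and acts in late osteoblasts and osteocytes, was the member whose highest cluster was not 4. Cluster 7 had the highest mean, from 6.22 CPM in het and 46.6 CPM in KO, and cluster 4 followed with 11.96 CPM (9.17 to 15.3) and 29.1 CPM (25.2 to 33.3). These 2 clusters cannot be ordered, since each was above the other in 1 library. In KO cluster 7, 3 cells held 62, 29 and 27 of its 256 Phex UMIs, and the cell with 62 had no UMI of Runx2, Sp7, Dlx5, Ibsp, Spp1, Bglap or Bglap2.

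Ibsp, a sialoprotein that nucleates mineral, was at background level in the other stromal clusters. Its level in cluster 4 was 1046 CPM in het (1019 to 1075) and 577 CPM in KO (559 to 595). Clusters 0, 5 and 7 together held 16 UMIs in het (0.535 CPM) and 47 in KO (1.36 CPM), which is below the 2.57 and 1.86 CPM of the B-lineage clusters, cells not known to make it. Cluster 4 held 94.4% and 96.4% of all Ibsp UMIs. Cluster 12 of the het library came next with 49.4 CPM, of which 156 of 166 UMIs were in 1 cell that also had 13 Runx2 and 34 Bglap2 UMIs. Without that cell the level was 2.99 CPM.

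Spp1, osteopontin, a phosphoprotein of bone that other cell types also secrete, was the most widespread matrix gene. Cluster 4 had 2333 CPM in het (2292 to 2375) and 2602 CPM in KO (2565 to 2640), against 49.1 and 65.3 CPM in clusters 0, 5 and 7 together. Within those, cluster 5 had the most, with 113 and 145 CPM, against 34.7 and 44.4 CPM in cluster 0 and 32.2 and 39.3 CPM in cluster 7. Cluster 12 stood second in both libraries (685 and 738 CPM), but 72.7% and 80.1% of its Spp1 UMIs were in 1 cell, and without that cell it had 188 and 147 CPM. Likewise the 359 CPM of het cluster 2 rested on 1 cell with 1132 of 1187 UMIs. No other gene of the 9 was as often found at 10 or more UMIs in single cells outside clusters 0, 4, 5 and 7.

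Bglap and Bglap2, the osteocalcin genes, whose protein binds calcium in bone matrix, were as narrow as Ibsp. Bglap was at 1274 CPM in het (1244 to 1305) and 954 CPM in KO (931 to 977), and Bglap2 at 811 CPM (787 to 836) and 592 CPM (574 to 610). Clusters 0, 5 and 7 together had 1.84 and 1.51 CPM of Bglap and 0.770 and 0.987 CPM of Bglap2, levels under those of the B-lineage clusters of the same library. Cluster 4 held 91.7% to 95.03% of the UMIs of either gene in either library. The highest level elsewhere was 55.8 CPM of Bglap in KO cluster 3, a macrophage-like cluster with 6 of 6 macrophage markers. There 1 cell of 29423 UMIs held 312 of the 407 Bglap UMIs, together with 535 Spp1 and 113 Bglap2 UMIs.

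**Figure D1:**
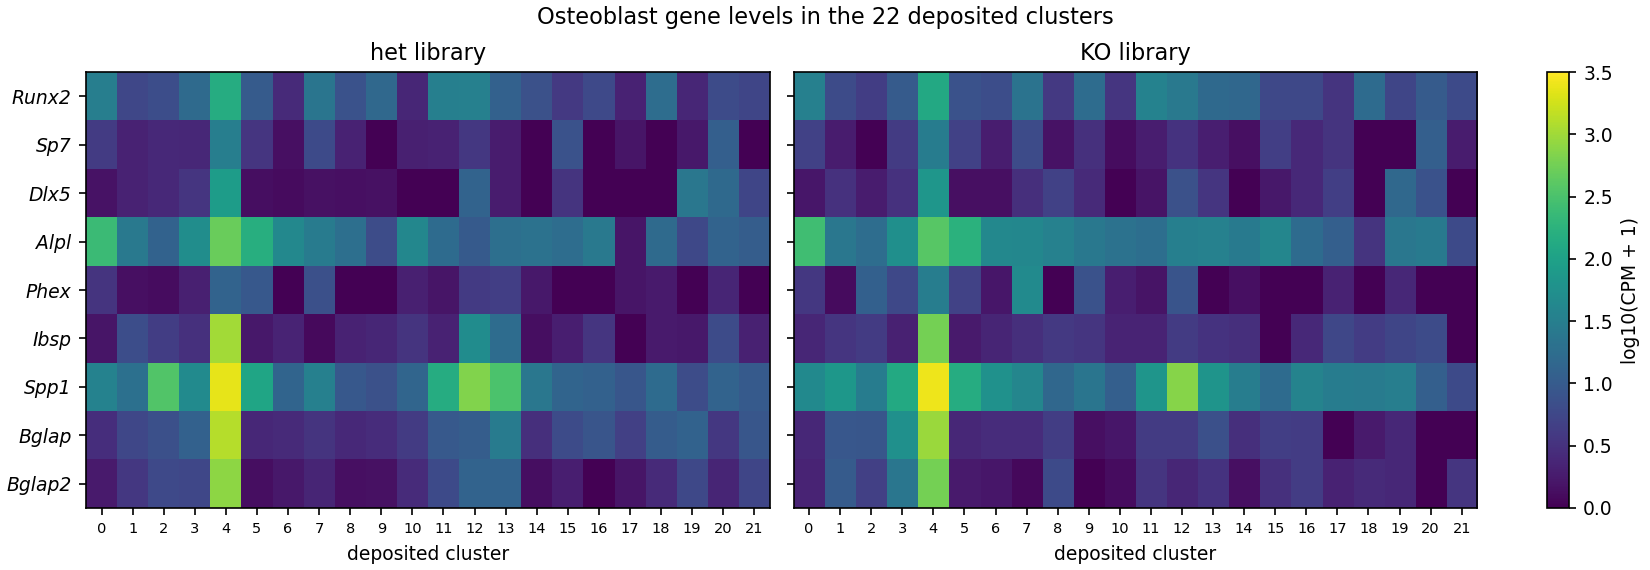
Level of each of the 9 genes in the 22 clusters, shown by color (CPM, log scale), with 1 panel per library. Cluster 4 is highest for 8 genes, Alpl is also high in clusters 0 and 5, and Phex reaches its highest value, 46.6 CPM, in KO cluster 7.

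Free RNA can give a UMI to a cell that does not express a gene, so shares of cells were set beside those of the B-lineage clusters 1, 2, 6, 10 and 16. These cells are shallower (median 4965 UMIs in het and 4967 in KO), and shares were therefore also computed with each cell thinned to 1000 UMIs, which left out 7 het and 16 KO cells of cluster 4. Thinned, Runx2 was in 13.4% of het and 11.6% of KO cells of cluster 4, against 0.265% and 0.484% of B-lineage cells. Dlx5 was in 7.81% and 5.62%, against 0.0576% and 0.0765%, and Sp7 in 2.75% and 2.50%, against 0.0713% and 0.0508%. All 3 regulators thus stood far above that background in both libraries.

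For the matrix genes the thinned shares in cluster 4 were 11.4% and 8.13% for Bglap, 13.2% and 9.29% for Bglap2 and 4.12% and 2.96% for Ibsp, against at most 0.480% in B-lineage cells. In clusters 0, 5 and 7 none of these 3 genes passed 0.308%, and each share was below that of B-lineage cells of the same library, so it is read as background. Spp1 was different. Its thinned share was 9.39% in het and 9.23% in KO cells of cluster 4, but also 7.83% and 11.1% in cluster 5. It was 3.06% and 3.83% in cluster 0, 2.95% and 2.71% in cluster 7, and 1.80% and 3.52% in B-lineage cells. Against cluster 5, cluster 4 differed in the amount of Spp1 in a few cells rather than in the share of cells with it. Alpl was in 29.7% and 24.9% of cluster 4 cells, 19.5% and 20.1% of cluster 0, 11.9% and 13.7% of cluster 5, and 2.15% and 2.17% of B-lineage cells.

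**Figure D2:**
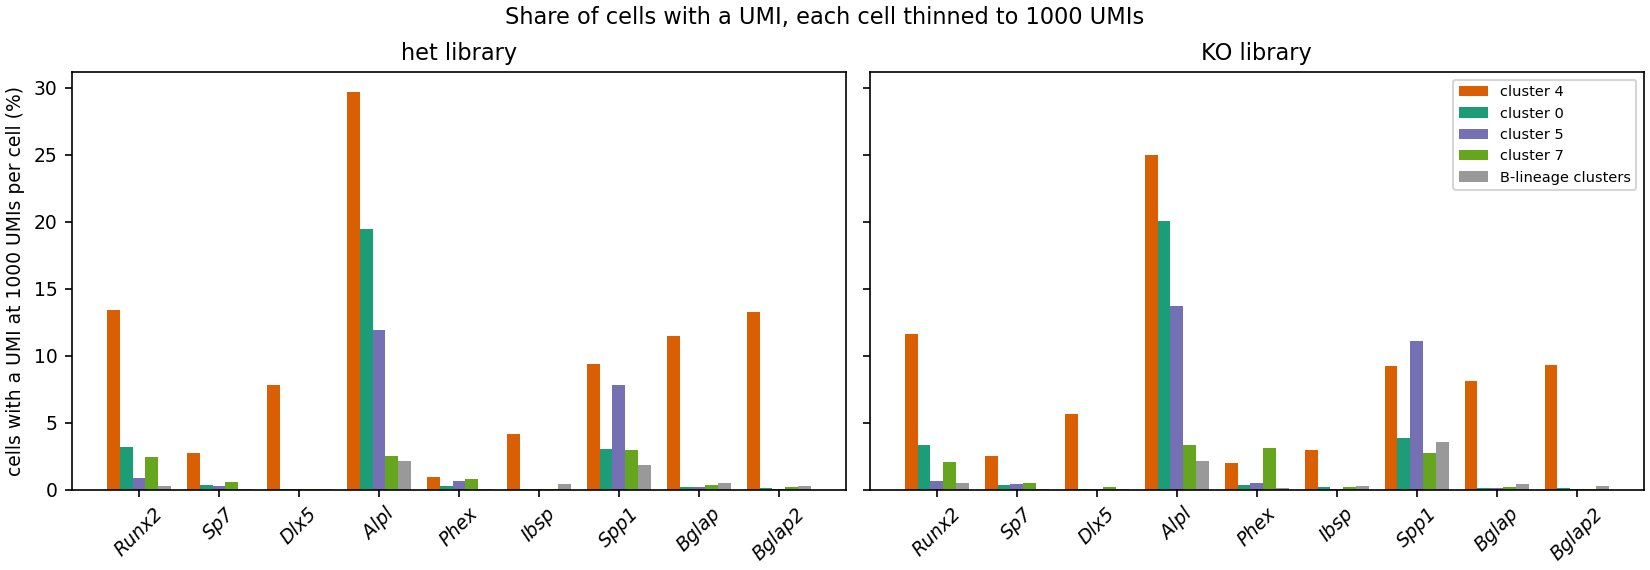
Percent of cells with at least 1 UMI of each gene after each cell was thinned to 1000 UMIs, in clusters 4, 0, 5 and 7 and in the B-lineage clusters, by library. Cluster 4 has the tallest bar for 7 genes in both libraries, Spp1 is at 11.1% in KO cluster 5, and Phex is higher in KO cluster 7 than in KO cluster 4.

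The 9 genes differed most in how they were spread over the cells of cluster 4. For Runx2, 50% of the UMIs lay in 57 het and 73 KO cells, and the top cell had 20 and 22 UMIs. Alpl (42 and 61 cells) and Dlx5 (31 and 38 cells) were spread in a similar way, and Sp7 needed 15 and 27 cells. The regulators and the phosphatase were thus carried by many cells in each library.

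The matrix genes were carried by a handful. Of 5424 het Ibsp UMIs, 3 cells held 2262, 1713 and 1050, or 92.6%. Of 4049 KO Ibsp UMIs, the top 3 cells held 1496, 1215 and 626, or 82.4%. For Spp1, 3 cells held 58.1% of the 12095 het UMIs and 60.9% of the 18268 KO UMIs, with 3120 and 4598 UMIs in the top cells. Bglap had 1876 and 1880 UMIs in its top cells, and 50% of its UMIs were in 3 het and 2 KO cells. For Phex, at far fewer UMIs, 50% lay in 3 het and 5 KO cells. A difference between the libraries in a matrix gene or in Phex therefore rests on few cells. The counting intervals, which treat UMIs as independent, are too narrow for it.

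**Figure D3:**
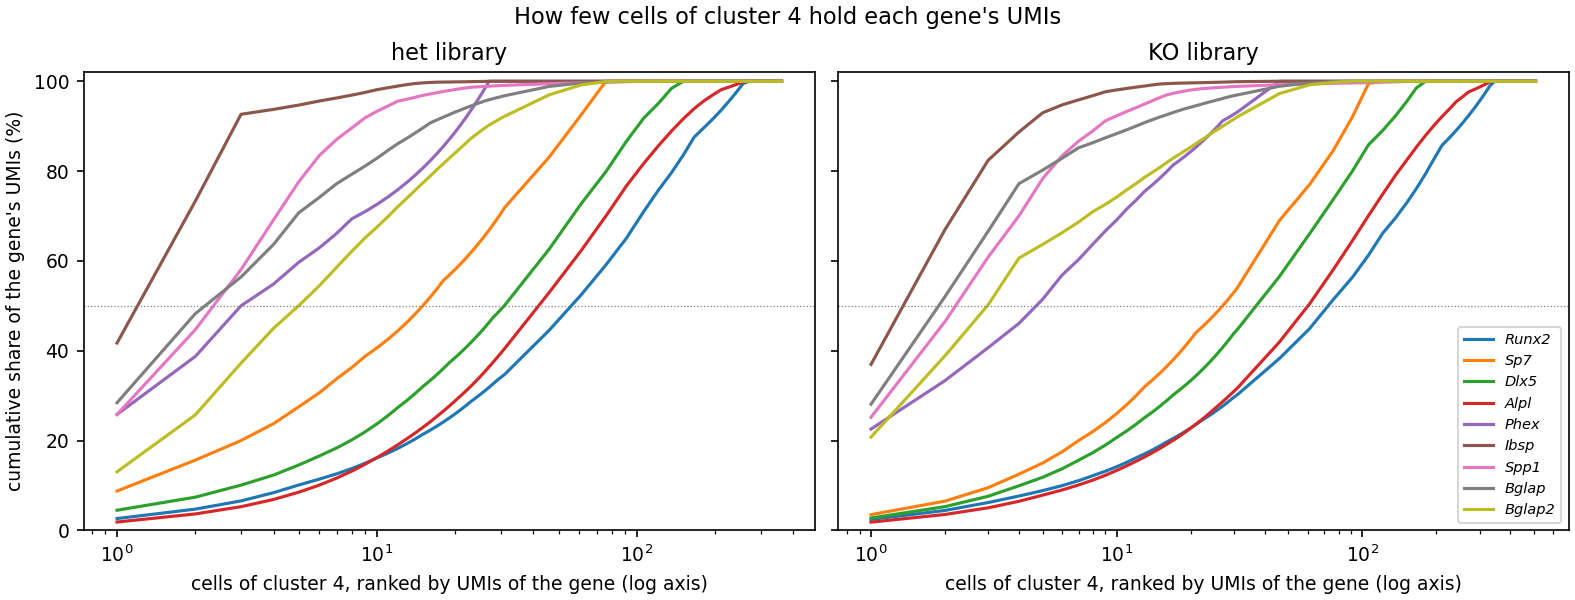
Share of each gene's UMIs in cluster 4 (percent) held by the cells with the most UMIs of it, against the number of cells added in order (log axis), by library. The curve of Ibsp is at 92.6% in het and 82.4% in KO after 3 cells, and that of Runx2 reaches 50% after 57 het and 73 KO cells.

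The high cells of the 3 matrix genes overlapped in part. Osteocalcin was at 10 or more UMIs in 56 of 360 het cells (15.6%, 11.97 to 19.7) and 54 of 507 KO cells (10.7%, 8.10 to 13.7). Ibsp reached 10 UMIs in 14 cells of each library, and 9 het and 8 KO cells of these also had 10 or more osteocalcin UMIs. Spp1 reached it in 23 het and 29 KO cells, of which 15 and 14 were high in osteocalcin. In 295 het (81.9%) and 436 KO cells (86.0%) none of the 3 reached 10 UMIs. Runx2 was still found in 200 and 274 of those cells and Alpl in 200 and 267, but Sp7 in 33 and 60.

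The cells with the most Ibsp had almost no Spp1. In the 3 het cells with 100 or more Ibsp UMIs there was no Spp1 UMI, although they had 11384 to 24695 UMIs in all and 465 to 540 Bglap UMIs. Of the 5 KO cells with 100 or more Ibsp UMIs, 2 had no Spp1 UMI and 2 had 100 or more. Conversely, none of the 12 het and 2 of the 16 KO cells with 100 or more Spp1 UMIs had 100 Ibsp UMIs. The cells highest in Spp1 had 3120 and 4598 UMIs of it, 0 and 2 of Alpl, 49 and 35 of Ibsp, and 223 and 109 of the collagenase Mmp13, which was at 0 in each of the top 3 Ibsp cells of both libraries. Both kinds of cell were seen in both libraries, and their numbers are too small to compare.

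Detection of the regulators went with the matrix genes from cell to cell. Of the het cells with an Sp7 UMI, 95.9% also had Runx2, 87.7% Dlx5 and 61.6% Bglap, against 66.2%, 27.5% and 13.6% of the cells without Sp7. In KO the shares were 91.6%, 64.5% and 49.5% with Sp7 and 60.5%, 26.0% and 7.75% without. Cells with Sp7 were deeper, with median totals of 15139 against 14299 UMIs in het and 15949 against 12914 UMIs in KO, and the part of depth in these shares was not tested.

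To show how the genes change with osteocalcin, cells were put into 5 bands by their Bglap and Bglap2 UMIs (0, 1, 2 to 9, 10 to 99, and 100 or more). The bands were chosen after seeing the data, because most cells tie at 0, and a band is a range and not a cell type. They hold 267, 16, 21, 37 and 19 het cells and 405, 26, 22, 41 and 13 KO cells. Sp7 went from 7.81 CPM at 0 to 194 CPM in the top band in het, and from 12.4 to 142 CPM in KO. Runx2 spanned less, from 103 to 261 CPM in het and from 97.2 to 252 CPM in KO, and its highest levels were 350.5 and 295 CPM in cells with 2 to 9 osteocalcin UMIs. Runx2 was thus highest in a low band, with intervals that overlap those of the bands above, while Sp7 was highest in the top band.

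Dlx5 went from 36.1 CPM at 0 to 264 CPM in the top band in het and from 33.9 to 177 CPM in KO. Its highest levels were 279 CPM in the het band of 10 to 99 and 246 CPM in the KO band of 2 to 9. The intervals of both overlap those of the bands above. Dlx5 was present in 37 of 37 het cells of the band of 10 to 99. Alpl was highest in that band, at 1447 CPM in het and 1118 CPM in KO, and stood at 1187 and 705 CPM in the top band. The intervals of these 2 bands do not overlap in either library. Ibsp was highest in the top band, with 14845.5 CPM in het and 11054 CPM in KO. The band below had 227 and 69.7 CPM. In the top band 12 of 19 het and 5 of 13 KO cells had no Ibsp UMI. There 3 het cells held 2262, 1713 and 1050 of 5117 Ibsp UMIs, and 2 KO cells held 1496 and 1215 of 3118. Spp1 was in 57.9% and 61.5% of cells of the top band and in 62.2% and 63.4% in the band of 10 to 99. Its level differed between the libraries, at 7766 CPM in the band of 10 to 99 and 8707 CPM in the top band in het, but 1012 and 43474 CPM in KO. The 3 KO cells with the most Spp1, at 4598, 3893 and 2627 UMIs, were all in the top band. Phex was at 75.4 and 149 CPM in the top band, from 4 of 19 het and 4 of 13 KO cells. The 3 het cells with the most Ibsp held 16, 7 and 2 of the 26 het Phex UMIs there. Phex gave 1 UMI in het and 0 in KO in the 10 to 99 band, where a count of 0 allows up to 4.65 CPM.

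Markers of other types also moved over the bands. The fibroblast marker Cxcl14 went from 285 to 8.70 CPM in het and from 268 to 3.55 CPM in KO between the lowest and the highest band, whereas Lum went from 561 to 3026 CPM and from 808 to 2514 CPM. Ctsk, which osteoclasts and some fibroblasts express, went from 665 to 328 CPM and from 643 to 287 CPM. Acta2 went from 86.1 to 946 CPM in het, and in KO from 116 CPM to 1198 CPM in the band of 2 to 9 and 128 CPM in the top band. Their part in the members' values was not tested.

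**Figure D4:**
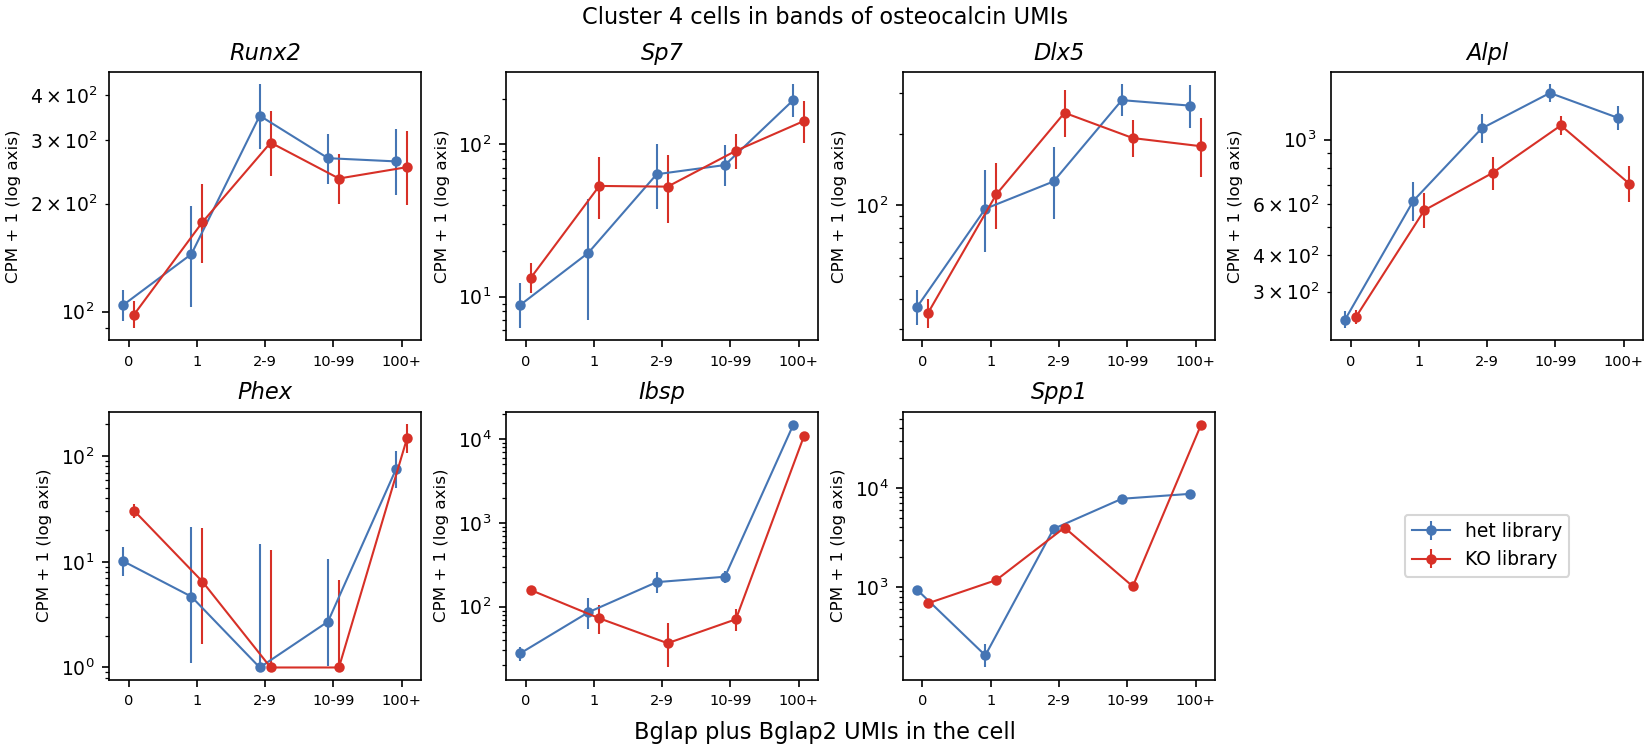
Level of the other 7 genes (CPM, log axis) in cluster 4 cells ordered by bands of Bglap plus Bglap2 UMIs, by library, with intervals of counting error. Sp7 and Ibsp are highest in the top band, and Alpl is highest at 1447 CPM in the het band of 10 to 99. Dlx5 is highest in the band of 10 to 99 in het and in that of 2 to 9 in KO.

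Between the libraries, 2 of the 9 genes differed by 1.5-fold or more in cluster 4, against 1.98% of the 9073 genes with at least 100 UMIs there. Phex was the 1 higher in KO (0.97% of all genes) and Ibsp the 1 lower (1.01%). Of the 9, 7 had a KO/het ratio under 1, and their median log2 ratio was -0.35. Over all 9073 genes 52.6% were lower in KO, with a median log2 ratio of -0.01.

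Among the regulators, the KO/het ratio was 0.875 for Runx2 (0.794 to 0.965), 0.923 for Sp7 (0.746 to 1.14) and 0.783 for Dlx5 (0.687 to 0.893). Alpl had a ratio of 0.764 (0.723 to 0.806). None of these reached 1.5-fold, and the interval of Sp7 includes 1. Runx2, Dlx5 and Alpl kept a ratio under 1 in female cells and in male cells alike. In cells with no osteocalcin UMI, Runx2 was at 103 CPM in het (93.3 to 114) and 97.2 CPM in KO (89.1 to 106), Dlx5 at 36.1 and 33.9 CPM, and Alpl at 240 CPM (224 to 256) and 245 CPM (232 to 258). Sp7 was higher in KO in these cells, at 7.81 CPM in het (5.23 to 11.2, 29 UMIs) and 12.4 CPM in KO (9.58 to 15.7, 67 UMIs), the opposite direction to its ratio over all cells of the cluster, and the 2 intervals overlap. In the band of 10 to 99, Alpl was at 1447 CPM in het (1350 to 1548) and 1118 CPM in KO (1038 to 1203). Dlx5 there was at 279 CPM (237 to 325) and 192 CPM (160 to 229). In the band of 2 to 9 Dlx5 went the other way, at 125 CPM in het (86.9 to 175) and 246 CPM in KO (194 to 308). With 1 osteocalcin UMI Dlx5 was at 95.8 and 110 CPM, and in the top band at 264 and 177 CPM.

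Among the matrix genes, Ibsp had a ratio of 0.551, Bglap 0.748, Bglap2 0.730 and Spp1 1.12. The Ibsp ratio rests on its top cells, and without the 3 cells with the most Ibsp in each library it was 1.31. Spp1 was 1.64 without the 5% of cells with the highest doublet score, and in that setting Bglap was 0.970 and Bglap2 0.786. It left out 21 of 360 het and 10 of 507 KO cells of cluster 4, an uneven loss. The lower osteocalcin level in KO went with a lower share of cells with 10 or more UMIs (15.6% in het and 10.7% in KO), 2 shares whose intervals overlap.

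Phex, at 62 UMIs in het and 204 in KO, had a ratio of 2.43 (1.82 to 3.28). It stayed above 2 when the top cell (2.53) or the top 3 cells (2.87) of each library were left out. The cells that carried it differed between the libraries. In het, 3 cells had 5 or more Phex UMIs, and each had Ibsp and Dmp1 UMIs, Dmp1 being a matrix protein of osteocytes. In KO, 11 cells had 5 or more, of which 8 had no Ibsp UMI and 8 no osteocalcin UMI. The KO cell with the most, 46 UMIs, had no UMI of any other of the 9 genes at a total of 18937 UMIs. KO cells of cluster 7 were also higher in Phex than het cells, 7.49-fold (5.09 to 11.4), and cluster 5 went the other way, at 0.469 (0.285 to 0.760).

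**Figure D5:**
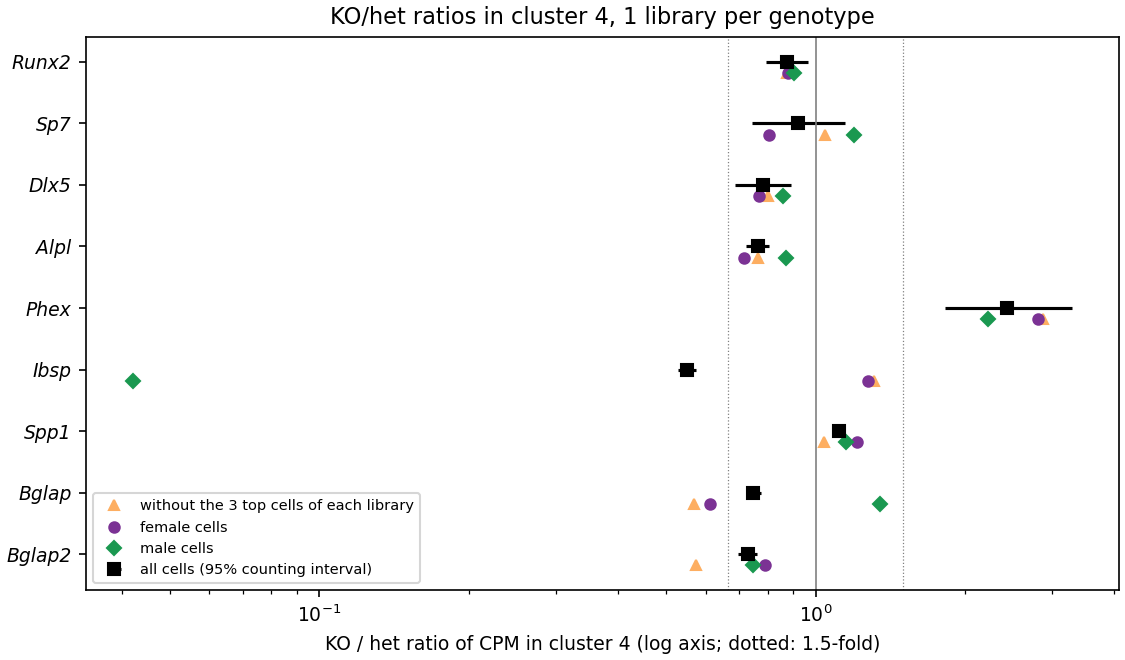
KO/het ratio of each of the 9 genes in cluster 4 (log axis) with all cells, by sex label and without the top cells, and the interval of counting error on the value over all cells. Phex is above 1 under each choice, and Ibsp runs from 0.042 in male cells to 1.31 without its top 3 cells.

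The mice of each sex were pooled separately, and the authors gave each cell a sex label, which in 5950 of 5950 het and 6594 of 6594 KO cells equals the presence of a UMI of the X-inactivation RNA. A shallow female cell can therefore carry the male label. With the labels taken as 2 pools per library, 1 of the 9 genes had both KO pools on the same side of both het pools, against 31.9% of all genes. That gene was Phex, with 36.0 and 24.4 CPM in female and male KO cells and 12.8 and 10.99 CPM in het. Ibsp was at 1081 CPM in female and 1008 CPM in male het cells, but at 1380 CPM in female and 42.5 CPM in male KO cells. The 5 KO cells with 100 or more Ibsp UMIs were all female. Of the 2477 Ibsp UMIs of male het cells, 2262 were in 1 cell, so the male difference rests on that cell. Female cells had more Bglap than male cells in both libraries, 1870 against 613 CPM in het and 1143 against 827 CPM in KO. Its KO/het ratio was 0.611 in female and 1.35 in male cells, and that of Bglap2 was 0.790 and 0.746. Of the 3488 Bglap UMIs of male KO cells, 1880 were in 1 cell.

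Other genes of the same programme were taken from lists fixed by name, and a member of a list was measured where it had at least 100 UMIs in cluster 4. The counts past 1.5-fold stand beside 0.97% higher and 1.01% lower in KO of all 9073 genes. Of 10 measured osteoblast regulators none differed by 1.5-fold between the libraries, and their median log2 KO/het ratio was -0.16. Twist1 and Sox4, factors of early mesenchymal cells, had the most UMIs with 265 and 217 CPM in het and 284 and 215 CPM in KO. Atf4 had 159 and 152 CPM and Msx1, a homeobox factor of the skull, 144 and 130 CPM. None of these 4 was 2-fold above clusters 0, 5 and 7.

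Of 16 bone matrix genes, 1 was higher and 1 lower in KO, with a median of -0.03. The fibrillar collagen genes Col1a1 and Col1a2 and the matrix genes Sparc and Bgn were within 0.922 to 1.03 of the het level. Those 4 were at most 1.505-fold above the stromal clusters, so the bulk collagen of the dura did not mark cluster 4. Ifitm5, a membrane protein of mineralizing osteoblasts, was at 56.9 CPM in het and 19.9 CPM in KO (0.350, 0.284 to 0.430). Mmp13 was at 332 CPM in het and 574 CPM in KO (1.73, 1.64 to 1.83), 84.0-fold and 124-fold above the stromal clusters.

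Of 8 measured mineralization genes, 3 were lower in KO by 1.5-fold or more and none higher, with a median of -0.41. They were Smpd3, a sphingomyelinase needed for mineral (47.1 and 26.9 CPM), Enpp1, which makes pyrophosphate (43.2 and 26.2 CPM), and the channel gene Panx3 (16.2 and 8.40 CPM). Of the Enpp1 UMIs, 66 of 224 in het and 33 of 184 in KO were in 1 cell, and without these cells its ratio was 0.706 in place of 0.606, short of 1.5-fold. The top cell of Smpd3 held 57 of 244 het and 56 of 189 KO UMIs, and that of Panx3 11 of 84 and 24 of 59. Without these cells the ratios were 0.524 for Smpd3 and 0.353 for Panx3. Smpd3 followed the top osteocalcin band, with 230 of 244 het and 121 of 189 KO UMIs there. Mgp, an inhibitor of calcification, was at 15898 CPM in het and 17061.5 CPM in KO, Slc20a2, a phosphate transporter, at 198 and 136 CPM, and Ank, which exports pyrophosphate, at 71.0 and 58.3 CPM.

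Of 7 measured osteocyte genes, Phex among them, 2 were higher and 1 lower in KO. Dmp1 was at 12.3 CPM in het and 38.0 CPM in KO (3.08, 2.34 to 4.11). Of its UMIs, 23 of 64 in het and 113 of 267 in KO were in 1 cell, and without these cells the ratio was 2.77. In cluster 5 Dmp1 went the other way, with 45 het and 5 KO UMIs. Mepe was lower in KO (30.9 and 9.12 CPM), but 159 of its 160 het UMIs were in 1 cell. Pdpn, the gp38 antigen used in the sort, was at 91.6 and 81.3 CPM, Irx5 at 40.1 and 40.6 CPM, and the kinase gene Fam20c at 29.5 and 24.1 CPM. Sost, Fgf23 and Dkk1 had too few UMIs to be measured.

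In the remaining lists, 1 of 11 suture and osteoprogenitor genes, 1 of 10 genes of the PTH, WNT and BMP response and none of 6 osteoclast coupling genes differed by 1.5-fold, each lower in KO, with list medians of -0.08, -0.13 and -0.09 on the log2 scale. These were Tnc (229 and 140 CPM), a matrix glycoprotein, and Wif1 (150 and 91.0 CPM), a secreted WNT inhibitor. Prrx1 was at 343 and 344 CPM, Fgfr2 at 158 and 141 CPM, Six2 at 80.1 and 67.5 CPM, and the parathyroid hormone receptor gene Pth1r at 172 and 139 CPM. Lrp6 (291 and 300 CPM) and Id1 (126 and 108 CPM) also stayed within 1.5-fold, as did Cxcl12 (297 and 218 CPM), Csf1 (62.1 and 58.5 CPM), Ephb4 (27.2 and 27.6 CPM) and Sema3a (17.2 and 16.1 CPM). In the same cells the fibroblast markers summed to 5057 CPM in het and 5539 CPM in KO and the chondrocyte markers to 248.9 and 288.6 CPM, and their part in these ratios was not tested.

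The genes most like the 9 over the 22 clusters were ranked by Pearson's r between each gene's mean log2(CPM + 1) and the mean profile of the 9, among 12022 genes with at least 200 UMIs in each library. They were Wif1 (r 0.91), Mmp13 (0.90), Galr2 (0.86), Gpx3 (0.83), Rbpjl (0.82), Dio2 (0.82), Ifitm5 (0.82), Zim1 (0.81), Col6a5 (0.80) and Cilp2 (0.80). The 22 points share 2 libraries and 1 high cluster, so r mostly records a high value in cluster 4. Against the mean of the other 8, the 9 genes themselves ranged from 0.61 for Alpl to 0.86 for Ibsp.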

How the data were processed

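Per the submitters' processing notes, the authors counted UMIs per gene and barcode using Cell Ranger 3.0.2 and the mm10 build. They deposited 1 matrix per library, a count table of annotated cells, and metadata with cluster, library, sex label and percent of mitochondrial UMIs. Not given in the sources used here: how cells were filtered, which gene annotation was used, and how reads shared by Bglap and Bglap2 were assigned. The members' counts were equal in table and matrices in every cell, whereas 4669 cells' totals differed (182058228 against 182068242 UMIs).

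Here raw counts were summed per cluster in each library and divided by all UMIs of those cells (CPM), in Python 3.11.15 with scipy 1.17.1. Intervals are exact (95%): Poisson for a level, Clopper-Pearson for a share of cells, conditional binomial for a ratio, and 3 counts where none was seen. The ratio script was tested on simulated data. Shares were thinned to 1000 UMIs per cell by the exact mean over draws without replacement. Doublets were kept in the main values, and Scrublet (scanpy 1.11.5) scores were used as an alternative without the top 5% of each library. Genes were read as different at 1.5-fold between libraries and 2-fold between clusters, with at least 100 UMIs. All members are named. From each list the text names the 4 measured genes with the most UMIs and any past 1.5-fold, and the 10 genes most like the members, without predicted, immunoglobulin, mitochondrial, ribosomal protein and sex-linked genes. Equal groups of cluster 4 cells ranked by osteocalcin had been planned, but 74.2% of het and 79.9% of KO cells were at 0, so bands were used. Other genes of single cells (Mmp13, Dmp1, Cxcl14, Lum, Ctsk) were chosen after their values were seen. The members and gene lists were chosen with earlier results of these data known.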

Additional observations from a re-analysis of the deposited data

Results flagged for a closer look

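Barcodes without an annotation, 4986 of 10936 in het and 5452 of 12046 in KO, were in no comparison above. Their UMIs held 4.98% (Ibsp) to 28.3% (Runx2) of a member's het counts and 10.2% (Bglap) to 32.2% (Runx2) of its KO counts. There 6 members were higher in KO than in het beyond their counting intervals, and Sp7 was near equal at 1.03 (0.781 to 1.35). The share of all genes higher in KO in these barcodes was not computed, so the 6 are not read as a result about the members. The KO/het ratio in these barcodes was 1.23 for Runx2, 1.30 for Dlx5, 1.40 for Alpl, 1.86 for Phex, 1.46 for Ibsp and 1.83 for Spp1. Runx2, Dlx5, Alpl and Ibsp were lower in KO in cluster 4. Bglap and Bglap2 were lower in KO in these barcodes too, at 0.594 and 0.723. The highest single barcode had 2089 Spp1 UMIs in KO and 936 in het.

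Some ratios had the opposite direction in cluster 4 and in a stromal cluster, and these differences were not tested. Dlx5 was at 0.783 in cluster 4 and 4.66 in cluster 7, from 2 het and 11 KO UMIs. Alpl was at 0.764 in cluster 4, against 1.09 in cluster 0, 1.09 in cluster 5 and 1.44 in cluster 7. Phex was at 2.43 in cluster 4 and 0.469 in cluster 5. Ibsp was at 0.551 in cluster 4, against 2.48 in cluster 0 (11 and 30 UMIs) and 9.33 in cluster 7 (1 and 11 UMIs, 1.36 to 402), where its level is that of background.

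The direction also differed between the sex labels within cluster 4, again without a test. Ibsp was at 1.28 in female and 0.0421 in male cells, and Bglap at 0.611 in female and 1.35 in male cells. The male Ibsp value rests on 1 het cell, with 2262 of the 2477 UMIs of male het cells. The male Bglap value rests in large part on 1 KO cell, with 1880 of the 3488 UMIs of male KO cells.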

How the results depend on the processing

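No paired analysis was possible because each genotype has 1 library, and no replicate could be left out. Of 90 values of the members' KO/het ratios under 10 alternatives, 68 stayed within the counting interval of the main value and 22 did not. Ibsp, 1 of the 2 genes that differed by 1.5-fold, crossed to the other side of 1 in 2 alternatives, at 1.28 in female cells and 1.31 without the top 3 cells of each library (added after seeing the data). Of the genes within 1.5-fold, Sp7 crossed 1 in male cells (1.20) and without the top 3 cells (1.04). Bglap crossed it in male cells (1.35), where 1 KO cell held 1880 of 3488 UMIs, and Spp1 as a mean over cells (0.790). Runx2, Dlx5, Alpl and Bglap2 stayed under 1 and Phex above 1 in all 10. Sp7 was as low as 0.806, Spp1 as high as 1.64 and Bglap as low as 0.570. With a fold of 2 in place of 1.5, 1 member differed in place of 2. The members' median log2 ratio was -0.15 in male cells against -0.35 over all cells. With the B-lineage level subtracted, 4 members kept a stromal value, and 3 of them were 2-fold higher in cluster 4, in place of 8 of 9. The cause of these shifts was not tested, except that the last setting leaves fewer genes. Of 226 ratios of cluster 4 over stroma, 82 moved and 1 reversed, Phex in KO against cluster 7 alone (0.624). Depth limits Sp7 and Phex, with 160 and 62 het UMIs, and the matrix genes and Phex rest on few cells.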

Other observations

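Il33 was low in the cells of cluster 4 with 10 or more osteocalcin UMIs. It was at 97.4 CPM in the 267 het cells without an osteocalcin UMI, with a UMI in 138 of them, and at 21.03 CPM in the corresponding 405 KO cells. In the band of 10 to 99 osteocalcin UMIs it gave 2 UMIs in het and none in KO, and in the top band none in either, where a count of 0 allows up to 8.70 CPM in het and 10.6 CPM in KO. Mgp, an inhibitor of calcification, took the same course at a far higher count, from 20256 to 673 CPM in het and from 19970 to 546 CPM in KO between the lowest and the top band. Wif1 went the opposite way, from 33.4 to 853 CPM in het and from 29.3 to 503 CPM in KO. Col1a1 was at 17451 and 16947 CPM in cells without osteocalcin and at 19769 and 42234 CPM in the top band. These genes were chosen after their values were seen.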
